A study of Mus musculus with 9 samples.

Results

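The genes described here are Sost, Sostdc1, Dkk1, Dkk2, Dkk3 and Wif1, which encode secreted inhibitors of Wnt signalling and related proteins, in osteocyte-enriched bone of virgin, lactating and post-lactation mice. They were taken as the probe sets annotated to exactly 1 of these 6 gene symbols, which gave 10 probe sets among the 45101 of the array. The 6 genes stand among 18194 genes that some probe set named alone. Sost, Sostdc1, Dkk1 and Dkk3 had 2 probe sets each, called the brighter and the dimmer below, and Dkk2 and Wif1 had 1 each. A probe set is a group of short probes that read the same transcript, and its level is a log2 value, so that a difference of 1 is a doubling.

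All mice were CD1 wild type, an outbred stock, aged 16 to 18 weeks. The virgin group was matched for age, the lactation group was killed on day 12 of lactation, and the post-lactation group was killed 7 days after its pups had been taken away on day 12 of lactation. Litters of the dams that nursed had been set to 8 to 13 pups. RNA came from tibial shafts stripped of periosteum and marrow and then digested repeatedly with collagenase, trypsin and EDTA to take cells off the surface, so the remaining cells were expected to be mostly osteocytes, the cells buried in bone matrix. The series was made to find genes with which osteocytes remodel the matrix around them. Each group had 3 arrays, grouped by their titles. In conflict with their titles, the 3 post-lactation arrays carry the word virgin in their source field, and 1 sentence of the extraction text names femurs in place of tibiae. No label says that each array was a separate mouse, so the spread behind the p-values may be technical.

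Wnt proteins signal through Frizzled receptors paired with the co-receptors LRP5 and LRP6, and in bone this signal raises bone formation by osteoblasts. Sclerostin, the product of Sost, and DKK1 bind the co-receptors and block it, and sclerostin is known as a product of mature osteocytes that parathyroid hormone and mechanical load turn down. Sostdc1 encodes a relative of sclerostin, Dkk2 and Dkk3 encode relatives of DKK1, and WIF1 binds the Wnt proteins themselves.

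The osteocyte label was checked against 7 marker genes. Of these, 6 had a mean above 3.97, the 40th percentile of the means of all probe sets and the level under which a probe set is called dim here. Fgf23, a phosphate-regulating hormone gene, was dim. Markers of blood cells were also above that level in these bones, with 8 of 8 measured neutrophil genes and 7 of 7 measured B lymphocyte genes. By exactly equal values the arrays fell into 3 sets, and every set had an array from each group. Virgin 1, lactation 3 and post-lactation 1 made up set 1, with medians of 4.32 to 4.34. Virgin 2, lactation 2 and post-lactation 3 made up set 2 (4.80 to 4.82), and virgin 3, lactation 1 and post-lactation 2 made up set 3 (4.57). Identical values in a pair of arrays from set 2 or set 3 made up 36.1% to 44.1% of all probe sets, against at most 2.72% in set 1. Differences of the bright members are therefore also given within sets. With so few arrays, precision is limited throughout.

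Virgin 1 was unlike the other virgin arrays, and the genes of sclerostin and DKK1 were among those by which it differed most. Its Sost level was 8.14 with the brighter probe set, against 13.39 in virgin 2 and 13.55 in virgin 3. After each array's median was subtracted, that is a difference of -4.95 from the mean of virgin 2 and 3, a 31.0-fold lower signal and the lowest difference of all 45101 probe sets. The dimmer Sost probe set ranked 8 from the bottom (-3.76). The Dkk1 probe sets ranked 14 (the dimmer, -3.34) and 21 (the brighter, -3.0). Wif1 (-1.19, rank 824) and the brighter Dkk3 probe set (-0.90, rank 1616) were also lower in virgin 1. Over all probe sets the median of this difference was 0.07, and the 5th to 95th percentiles ran from -0.77 to 0.98.

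Other osteocyte genes were lower in the same array. Mepe, a matrix phosphoglycoprotein gene, differed by -3.32 (rank 15), Phex, which encodes a phosphate-regulating endopeptidase, by -2.37 (rank 95) and Dmp1, which encodes an acidic matrix protein of osteocytes, by -1.57 (rank 378). In the osteocyte list 6 of 7 genes were lower in virgin 1, the exception being Fgf23, which was higher by 1.95. Fgf23 read 4.46 in virgin 1, above the dim level, and 2.60 to 3.02 in the other arrays. The list averaged 3.43 log2 units over the array median in virgin 1, against 4.90 in virgin 2 and 5.23 in virgin 3. The neutrophil list went the other way, with 8 of 8 genes higher in virgin 1 and list means of 8.85, 8.28 and 7.98. Of these genes, S100a9 (0.04) and S100a8 (0.09) were near the median of 0.07 over all probe sets. All 7 measured B lymphocyte genes (1.37, 2.86 and 2.77) and all 7 chondrocyte genes (0.08, 0.87 and 1.24) were lower, though the dim Matn1 (-0.04) and Matn3 (-0.07) only slightly. Virgin 1 was the only virgin array of set 1, so its departure and a difference of array sets cannot be told apart within the virgin group. In set 1, lactation 3 and post-lactation 1 had the lowest osteocyte list means of their groups (4.66 and 4.38) and the highest neutrophil list means (8.45 and 8.55). With medians subtracted, the brighter Sost probe set was lowest of its group in post-lactation 1 (7.24) but not in lactation 3 (7.94). In bulk tissue, fewer osteocytes and less RNA of a gene per osteocyte cannot be told apart, and what made virgin 1 differ was not tested. The members' comparisons with the virgin group are given with and without it.

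**Figure D1:**
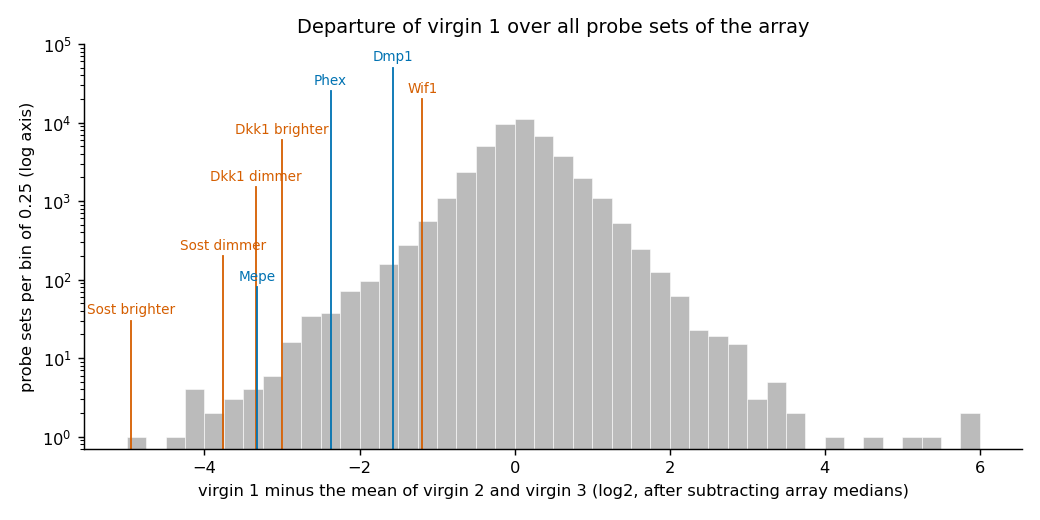
Number of probe sets (log axis) by the difference of virgin 1 from the mean of virgin 2 and virgin 3, in log2 after subtraction of array medians; vertical lines mark probe sets of the Wnt inhibitor genes and of Dmp1, Phex and Mepe. The brighter Sost probe set lies at -4.95, at the far left end, and Dkk1, Mepe and the dimmer Sost probe set lie between -3.0 and -3.76.

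Sost (brighter probe set 1450179_at, dimmer 1421245_at) was bright in all 9 arrays with the brighter probe set. In virgin 1 the dimmer read 4.11, only just above the dim level, and -0.20 after that array's median was subtracted. With the brighter probe set the virgin arrays 1, 2 and 3 read 8.14, 13.39 and 13.55, the lactation arrays 12.61, 12.57 and 12.27, and the post-lactation arrays 11.59, 12.90 and 13.00. Virgin 2 and 3 were the highest arrays of all and virgin 1 the lowest, so the virgin range enclosed both other groups. The dimmer probe set gave 4.11, 8.67 and 7.84 in virgin, 6.75, 6.99 and 6.50 in lactation, and 5.91, 6.67 and 7.66 in post-lactation arrays, the same arrangement. Group means of the brighter probe set were 11.70 ± 3.08 (SD, n = 3) in virgin, 12.48 ± 0.19 in lactation and 12.50 ± 0.79 in post-lactation arrays. With this probe set the order of the group means, from the highest, is thus post-lactation, lactation, virgin, with no neighbours separated beyond their spread. With the dimmer the virgin mean was the highest, at 6.87, against 6.75 in lactation and 6.75 in post-lactation arrays. Over virgin 2 and 3 alone the virgin mean of the brighter probe set was 13.47, above both other groups.

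Dkk1 (brighter probe set 1420360_at, dimmer 1458232_at) showed the same arrangement. The brighter probe set read 5.91, 9.32 and 9.25 in virgin 1, 2 and 3, 8.49, 8.27 and 8.38 in lactation, and 7.89, 8.74 and 8.74 in post-lactation arrays. The dimmer read 4.63, 8.21 and 8.48, then 6.89, 7.37 and 7.19, then 6.28, 7.16 and 7.12. For both probe sets virgin 2 and 3 were above all 6 arrays of the other groups and virgin 1 below all of them. The brighter probe set averaged 8.16 ± 1.95 (SD, n = 3) in virgin, 8.38 ± 0.11 in lactation and 8.46 ± 0.49 in post-lactation arrays, and 9.28 over virgin 2 and 3.

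The 250 bases before the transcription starts of Sost and Dkk1 are set side by side, as RefSeq gives them on GRCm38.p6. RefSeq sequences matched 4 of the 6 genes, and Sostdc1 and Dkk3 were not matched. Sost lies on the minus strand (chr11:101967016-101967265), and so does Dkk1 (chr19:30549497-30549746). The sequences run 5′ to 3′ along the gene, and capitals mark the matches to the motifs searched.
Sost: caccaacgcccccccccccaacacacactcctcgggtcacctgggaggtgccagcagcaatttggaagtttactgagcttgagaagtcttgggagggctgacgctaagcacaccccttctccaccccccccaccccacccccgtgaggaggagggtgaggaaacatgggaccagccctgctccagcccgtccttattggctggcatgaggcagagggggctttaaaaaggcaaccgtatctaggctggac
Dkk1: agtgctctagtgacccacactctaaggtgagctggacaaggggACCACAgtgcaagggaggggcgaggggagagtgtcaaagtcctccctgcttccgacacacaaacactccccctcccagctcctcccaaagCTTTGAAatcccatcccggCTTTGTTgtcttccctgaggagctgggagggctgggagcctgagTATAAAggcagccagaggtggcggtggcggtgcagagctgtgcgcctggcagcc
Capitals in the Dkk1 promoter mark a TATA box (TATAAA, searched on the gene's strand), a pair of matches to the TCF/LEF motif of Wnt-responsive genes (searched on both strands as CTTTGAA or CTTTGAT or CTTTGTA or CTTTGTT) and a RUNX motif (ACCACA, both strands). They lie 54 to 49 bases before the start (TATAAA), 117 to 111 (CTTTGAA), 98 to 92 (CTTTGTT) and 207 to 202 (ACCACA). None of these letters occurs in the Sost window. The Dkk2 window, not shown, held TATAAA 32 to 27 bases before the start, and that of Wif1 held no match. Among 32851 mouse promoter windows of that length, 7.59% held TATAAA, 14.8% a TCF/LEF motif and 14.05% ACCACA. A match is a description of the letters, and the arrays do not measure binding.

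Wif1 (probe set 1425425_a_at) was bright and varied less than Sost. Virgin 1, 2 and 3 read 8.92, 10.23 and 10.74, lactation arrays 10.38, 10.84 and 9.98, and post-lactation arrays 9.78, 10.64 and 10.51. Virgin 1 was again lowest, but virgin 2 and 3 lay within the range of the other groups. Means were 9.96 ± 0.94 (SD, n = 3), 10.40 ± 0.43 and 10.31 ± 0.46.

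Dkk3 (brighter probe set 1448669_at, dimmer 1417312_at) was above the dim level, and its probe sets followed each other only loosely. The brighter read 4.69, 5.68 and 6.27 in virgin 1, 2 and 3, 5.50, 5.34 and 5.20 in lactation, and 5.20, 5.20 and 5.68 in post-lactation arrays. The dimmer read 4.77, 5.70 and 5.41, then 5.06, 5.70 and 4.99, then 5.52, 5.18 and 5.73. Groups overlapped with both. The values of virgin 2 and post-lactation 3 were equal with the brighter probe set, and those of virgin 2 and lactation 2 with the dimmer, as happens often within set 2.

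Sostdc1 (1460250_at and 1449340_at) and Dkk2 (1420512_at) were dim, with all 9 values of each probe set under the dim level, so no fold is given for them. The brighter Sostdc1 probe set ran from 3.11 to 3.86 in virgin, 3.17 to 3.86 in lactation and 3.33 to 3.86 in post-lactation arrays. Its values were exactly equal in the 3 arrays of set 2 and in the 3 arrays of set 3. The dimmer ran from 2.59 to 3.46, 2.77 to 3.20 and 2.65 to 3.20. Dkk2 ran from 2.53 to 3.60, 2.40 to 3.60 and 2.98 to 3.35. These ranges overlapped fully, and at such levels a difference between groups was not measurable.

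**Figure D2:**
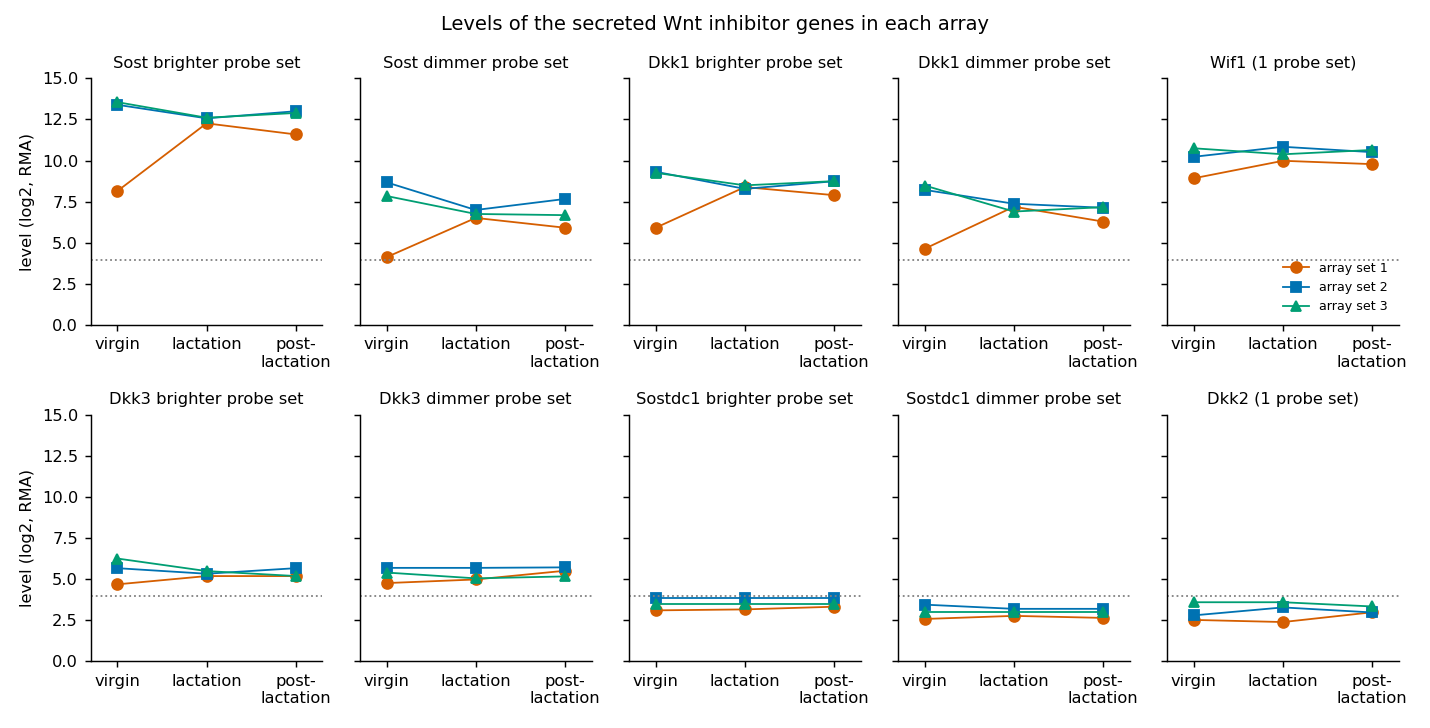
Level of each of the 10 probe sets (log2) in virgin, lactation and post-lactation arrays; each point is 1 array, lines join the arrays of an array set, and the dotted line is the dim level of 3.97. Set 1, with virgin 1, runs upward from virgin to lactation for Sost (8.14 to 12.27) and Dkk1 (5.91 to 8.38), while sets 2 and 3 run downward.

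The first comparison asks whether these inhibitors differ in bone of lactating mice, from which milk production draws mineral. None of the 10 probe sets passed between lactation and virgin when all arrays were used (limma, Benjamini-Hochberg adjusted p = 1 for each). At an unadjusted p under 0.05 there were 0 of the 10. Over all 45101 probe sets 0% passed, and 551, or 1.22%, had an unadjusted p under 0.05. Without virgin 1 all 4 probe sets of Sost and Dkk1 had lower means in lactation than in virgin arrays, by 1.87-fold to 2.85-fold, still without passing (adjusted p = 1).

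With all arrays the brighter Sost probe set differed by 0.78 (SE 1.13, lactation minus virgin), with a 95% interval from -1.70 to 3.27, and the dimmer by -0.13 (SE 0.92). Without virgin 1 they differed by -0.99 (SE 0.39, 95% interval -1.86 to -0.13), 1.99-fold lower, and -1.51 (SE 0.46, -2.53 to -0.49), 2.85-fold lower. Dkk1 differed by 0.22 and 0.04 (SE 0.73 and 0.80) with all arrays. Without virgin 1 it differed by -0.90 (SE 0.28, 95% interval -1.53 to -0.27), 1.87-fold lower, and -1.19 (SE 0.30, -1.87 to -0.52), 2.29-fold lower. One array out of 9 therefore decided the sign for the brighter Sost and both Dkk1 probe sets. Wif1 differed by 0.44 (SE 0.43, 95% interval -0.52 to 1.39) with all arrays and -0.09 (SE 0.34, -0.85 to 0.68) without virgin 1. Dkk3 differed by -0.20 (SE 0.35) and -0.04 (SE 0.29) with all arrays, and by -0.63 (SE 0.26) and -0.31 (SE 0.28) without virgin 1. Sostdc1 differed by 0.02 and -0.02 with all arrays and Dkk2 by 0.12. The intervals of Sostdc1 without virgin 1 were -0.78 to 0.44 and -0.82 to 0.35, and that of Dkk2 was -0.94 to 0.72.

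Without virgin 1, 5 of the 10 probe sets, both of Sost, both of Dkk1 and the brighter of Dkk3, were lower in lactation at an unadjusted p under 0.05, where 0.971% of all probe sets were. The Sost and Dkk1 probe sets were themselves among those in which virgin 1 lay lowest (ranks 1, 8, 14 and 21). Leaving it out raised their virgin means more than those of most probe sets, so shares over all probe sets are no like reference. The same 5 had all 3 lactation arrays below virgin 2 and 3, which held for 4.98% of all probe sets. With array medians subtracted it held for the Sost and Dkk1 probe sets, 4 of 10, and for 3.33% of all. Probe sets with equal values in lactation and virgin arrays of a set could not meet this, which lowers both shares. With all 3 virgin arrays no member was separated from lactation, against 1.99% of all probe sets in either direction. Leaving out virgin 1 also takes an array of set 1, with its lower median, out of the virgin group only. The median difference over all probe sets was then -0.10, and that of the 10 members -0.47. With the array set as a block as well, the members' median was -0.40 and the brighter Sost and Dkk1 probe sets differed by -0.71 (SE 0.28, adjusted p = 0.653) and -0.76 (SE 0.23, adjusted p = 0.490). In that fit 3 of the 10, the dimmer Sost and both Dkk1 probe sets, were lower at an unadjusted p under 0.05, against 3.34% of all probe sets. The brighter Sost probe set (limma, unadjusted p = 0.0533) and the brighter Dkk3 probe set (unadjusted p = 0.0780) were no longer among them.

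Within array sets the comparison is of 1 array with 1 array. In sets 2 and 3 the brighter Sost probe set differed by -0.82 and -0.95 and the dimmer by -1.68 and -1.09, lactation minus virgin. Dkk1 differed by -1.04 and -0.76 with the brighter and -0.84 and -1.58 with the dimmer probe set. In set 1, which holds virgin 1, these 4 probe sets differed the other way, by 4.12, 2.39, 2.48 and 2.56. Sost, Dkk1 and the brighter Dkk3 probe set, 5 of 10, were lower in both of sets 2 and 3, against 13.7% of all probe sets. That share counts probe sets with equal values in the arrays compared as not lower, 41.7% of all in set 2 and 44.1% in set 3. The Sost and Dkk1 probe sets had no such ties, so the share is too low a reference for them. Wif1 differed by 0.61 in set 2 and -0.36 in set 3, and by 1.06 in set 1. The brighter Dkk3 probe set differed by 0.50, -0.34 and -0.76 in sets 1, 2 and 3.

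**Figure D3:**
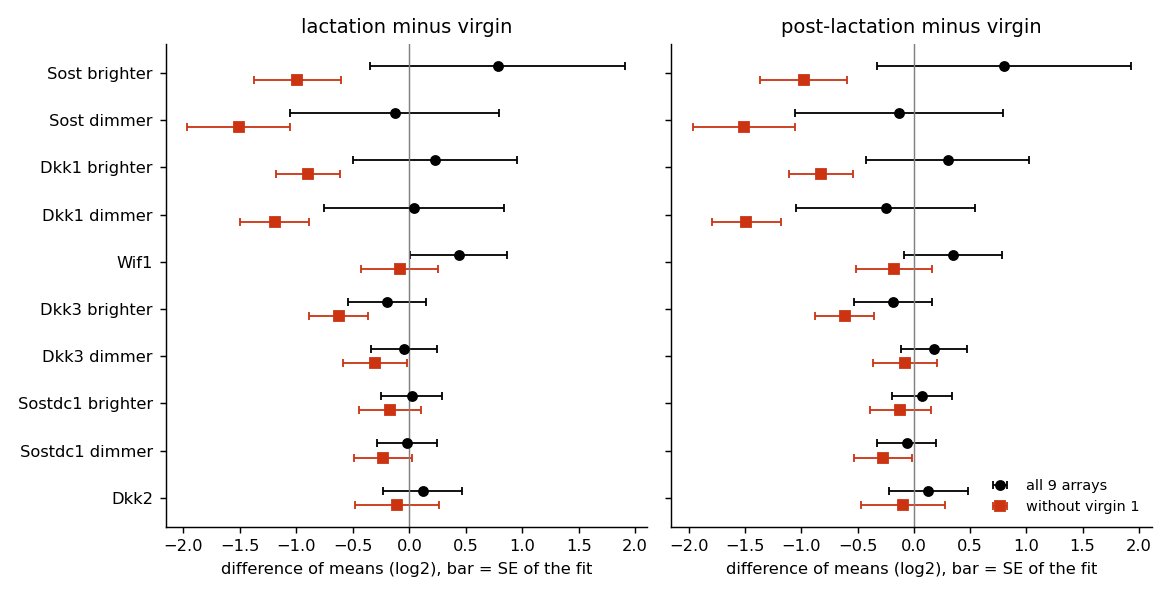
Difference of group means in log2 for each of the 10 probe sets, lactation minus virgin and post-lactation minus virgin, with all 9 arrays and without virgin 1; bars are the SE of the limma fit. Without virgin 1 the 4 Sost and Dkk1 probe sets lie between -0.83 and -1.51 with short bars, and with it the brighter Sost bar spans 0 (0.78, SE 1.13).

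The second comparison sets post-lactation against virgin, 7 days after weaning, when mineral is being put back. Again 0 of 10 probe sets passed (limma, adjusted p = 1 for each), against 0.0621% of all probe sets. At an unadjusted p under 0.05 there were 0 of 10, against 1.38% of all. Sost differed by 0.80 (SE 1.13, 95% interval -1.69 to 3.28) and -0.13 (SE 0.92) with all arrays, and Dkk1 by 0.30 (SE 0.73) and -0.25 (SE 0.80). Without virgin 1 the differences were -0.98 (SE 0.39, 95% interval -1.84 to -0.11), 1.97-fold lower, and -1.51 (SE 0.46), 2.85-fold lower, for Sost. They were -0.83 (SE 0.28, -1.46 to -0.19), 1.77-fold lower, and -1.49 (SE 0.30, -2.17 to -0.81), 2.80-fold lower, for Dkk1. The dimmer Dkk1 probe set had the lowest adjusted p of the members there, 0.399, so 0 of 10 passed, against 0.0377% of all probe sets.

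Without virgin 1 the same 5 probe sets as in lactation were lower at an unadjusted p under 0.05, against 1.33% of all probe sets. Both comparisons use virgin 2 and 3, so they are not independent. As for lactation, shares over all probe sets are no like reference for Sost and Dkk1 once virgin 1 is left out. All 3 post-lactation arrays lay below virgin 2 and 3 with the 4 Sost and Dkk1 probe sets, against 3.89% of all, and against 3.12% with array medians subtracted. Equal values within array sets lower these shares too. Once the array set was added as a block to the fit without virgin 1, 3 of 10 were lower at an unadjusted p under 0.05, again the dimmer Sost and both Dkk1 probe sets, against 3.91% of all.

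In sets 2 and 3 Sost differed by -0.39 and -0.66 with the brighter and -1.01 and -1.17 with the dimmer probe set, post-lactation minus virgin. Dkk1 differed by -0.58 and -0.51 with the brighter and -1.09 and -1.32 with the dimmer. In set 1, which holds virgin 1, these 4 probe sets differed the other way, by 3.45, 1.80, 1.99 and 1.65. The 4 probe sets were lower in both of sets 2 and 3, against 11.8% of all probe sets. Ties lower that share too, with 43.4% of all probe sets equal in set 2 and 40.1% in set 3. Wif1 differed by 0.35 (SE 0.43) with all arrays and -0.18 (SE 0.34) without virgin 1, and by 0.86, 0.28 and -0.10 in sets 1, 2 and 3. Dkk3 differed by -0.19 (SE 0.35) and 0.18 (SE 0.29) with all arrays, and by -0.61 (SE 0.26) and -0.08 (SE 0.28) without virgin 1, so the dimmer probe set turned sign. Sostdc1 differed by 0.07 and -0.06 with all arrays and by -0.12 and -0.27 without virgin 1. Dkk2 differed by 0.13 with all arrays and -0.10 without virgin 1, and these dim probe sets had SEs of 0.26 to 0.37.

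The third comparison, post-lactation against lactation, does not use the virgin arrays. None of the 10 probe sets passed (limma, adjusted p = 1 for each), against 0.353% of all probe sets, which were 157 lower and 2 higher. At an unadjusted p under 0.05 there were 0 of 10, against 3.44% of all. Sost differed by 0.02 (SE 1.13) and 0.00 (SE 0.92), and Dkk1 by 0.08 (SE 0.73) and -0.29 (SE 0.80). These SEs include the spread of the virgin group. Fitted without virgin 1 the SEs were 0.35 and 0.41 for Sost and 0.25 and 0.27 for Dkk1, with 95% intervals from -0.76 to 0.79 for the brighter Sost and -0.49 to 0.64 for the brighter Dkk1 probe set. Changes larger than those bounds are outside these intervals, and smaller ones could not be told from 0. Within sets 1, 2 and 3 the brighter Sost probe set differed by -0.68, 0.43 and 0.29, and the brighter Dkk1 probe set by -0.49, 0.46 and 0.25. They and the dimmer Dkk3 probe set were higher in both of sets 2 and 3, as were 16.2% of all probe sets, and Dkk2 was lower in both, as were 14.8%. Ties lower these shares as well. Wif1 differed by -0.09 (SE 0.43), with -0.20, -0.33 and 0.26 within the sets.

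Dmp1, Phex and Mepe, osteocyte genes that are no Wnt inhibitors, were set beside Sost and Dkk1 in the same arrays. Dmp1 read 11.90, 13.82 and 13.88 in virgin 1, 2 and 3, 13.83, 13.87 and 13.24 in lactation, and 13.16, 13.82 and 14.08 in post-lactation arrays. In sets 2 and 3 it differed between lactation and virgin by 0.04 and -0.05, where the brighter Sost probe set differed by -0.82 and -0.95. Phex lay between them, with -0.50 and -0.81 in those sets, and Mepe gave -0.26 and -0.48. Of the other osteocyte list genes above the dim level, Ptprz1 read 9.31 and 9.29 in virgin 2 and 3. It read 9.01 and 8.38 in lactation 2 and 1, their partners in sets 2 and 3. In the same order Irx5 read 8.53 and 8.91, then 8.33 and 8.43, and Pdpn 8.52 and 8.66, then 8.59 and 8.72. Ptprz1 and Irx5 were thus lower in lactation in both sets, and Pdpn was slightly higher. In set 1 Dmp1, Phex and Mepe differed the other way, by 1.34, 1.91 and 3.04. With all arrays the fitted lactation minus virgin differences were 0.44 (SE 0.48) for Dmp1, 0.20 (SE 0.61) for Phex and 0.77 (SE 0.81) for Mepe. Without virgin 1 they were -0.20 (SE 0.31) for Dmp1, -0.72 (SE 0.29) for Phex and -0.47 (SE 0.37) for Mepe, with adjusted p = 1 for each. Phex was thus also lower at an unadjusted p under 0.05 (limma, unadjusted p = 0.0328), and Dmp1 (0.526) and Mepe (0.233) were not. With the array set as a block as well, Phex stayed under 0.05 (limma, unadjusted p = 0.0323). The difference between genes was not tested. Over the array median, the osteocyte list averaged 4.90 and 5.23 log2 units in virgin 2 and 3, 4.66 to 4.85 in lactation and 4.38 to 5.05 in post-lactation arrays.

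Markers of other cells moved with the groups too. The osteoclast list (10 measured, 9 above the dim level, Calcr dim) had means of 2.61 to 2.66 in virgin, 3.50 to 3.91 in lactation and 2.57 to 3.13 in post-lactation arrays. The erythroid list (7 measured, all above it) stood at 3.58 to 4.65, 5.16 to 5.59 and 0.02 to 0.93, and the B lymphocyte list at 1.37 to 2.86, 2.10 to 2.80 and 3.15 to 3.87. The chondrocyte list (7 measured, 5 above the dim level) had an arrangement like that of Sost between virgin and lactation. It stood at 0.08, 0.87 and 1.24 in virgin 1, 2 and 3, 0.23 to 0.51 in lactation and 0.03 to 0.90 in post-lactation arrays. The part of these cells in the differences of Sost and Dkk1 was not tested.

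**Figure D4:**
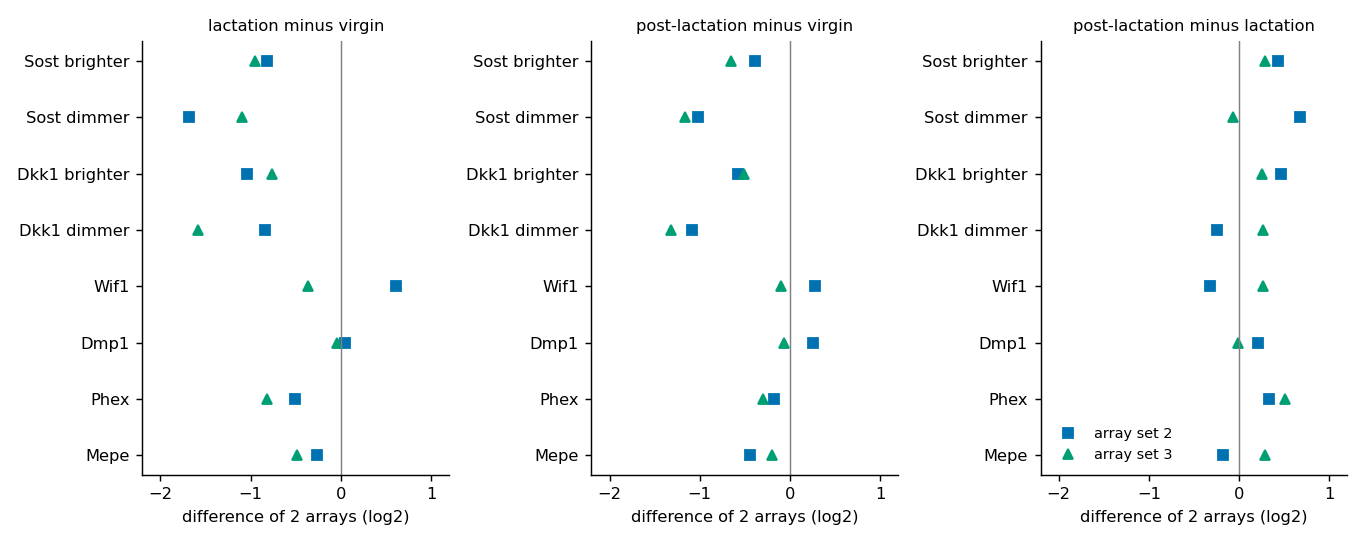
Difference of 2 arrays (log2) within array set 2 and array set 3, for each comparison of groups, for Sost, Dkk1, Wif1, Dmp1, Phex and Mepe. Lactation minus virgin lies between -0.76 and -1.68 for Sost and Dkk1 and within 0.05 of 0 for Dmp1. It lies at -0.50 and -0.81 for Phex and at -0.26 and -0.48 for Mepe.

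Sost and Dkk1 followed each other over the 9 arrays more closely than other pairs of the 4 genes above the dim level. With array medians subtracted, Pearson's r of their brighter probe sets was 0.98 (two-sided exact permutation p = 7.72e-05, adjusted p = 0.000463 over 6 pairs) and Spearman's rho was 0.93 (exact p = 0.00075, adjusted p = 0.0045). Without virgin 1 and virgin 3, the arrays farthest from the median of Sost, r was 0.87 over 7 arrays, and it was 0.92 without virgin 1 alone. After the mean of each array set was subtracted it was 0.98. Sost and Wif1 gave r = 0.86 (exact p = 0.0161, adjusted p = 0.0482) and rho = 0.53 (adjusted p = 0.221). Without virgin 1 and virgin 3 r was 0.12, so that relation rested on those arrays. Dkk1 and Wif1 gave 0.79 (exact p = 0.0363, adjusted p = 0.0726) and, without those arrays, -0.24. The pairs with Dkk3 had r between 0.52 and 0.69, with adjusted p = 0.140 to 0.160. Without virgin 1 and virgin 3 those of Dkk3 with Sost, Dkk1 and Wif1 were 0.06, 0.35 and -0.72. The arrays of a pair share their group and array set, so the points were not independent draws of 1 condition. The pair of probe sets of a gene correlated at 0.91 for Sost, 0.95 for Dkk1, 0.43 for Sostdc1 and 0.27 for Dkk3. Without virgin 1 these were 0.82, 0.86, 0.13 and 0.05, so the values of Sostdc1 and Dkk3 rested on that array.

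**Figure D5:**
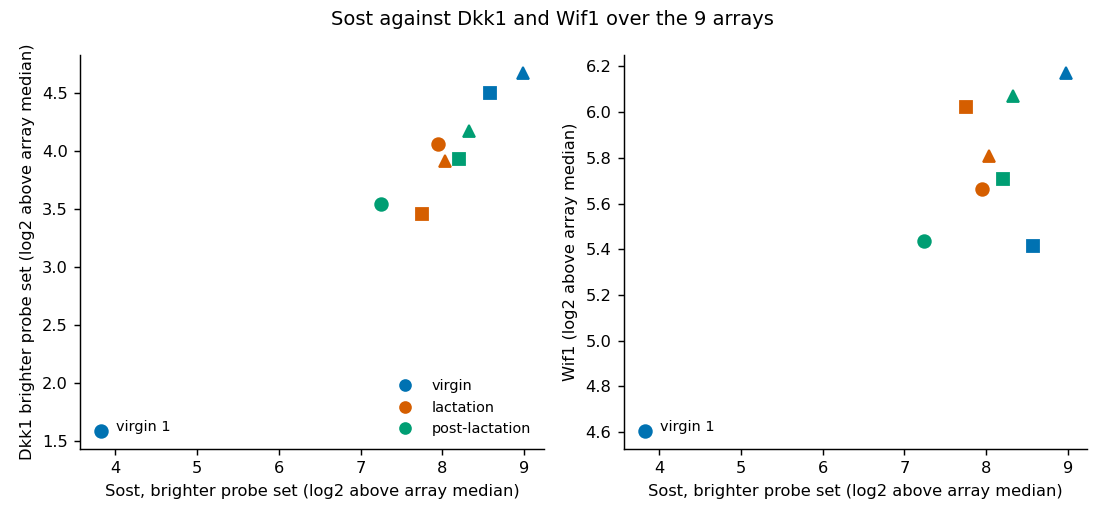
Brighter Sost probe set against the brighter Dkk1 probe set (left) and Wif1 (right) in log2 above the array's median; each point is 1 array, colours are groups, and circles, squares and triangles are array sets 1, 2 and 3. Virgin 1 lies far below the others in both panels (Sost 3.83, Dkk1 1.59, Wif1 4.61), and the remaining arrays form a line with Dkk1 (r = 0.92) but not with Wif1 (r = 0.43).

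The genes whose pattern was most like that of Sost were found among 22799 probe sets that name 1 other gene and have a mean above the dim level. By Pearson's r over the 9 arrays with medians subtracted, they were Mepe (0.986), Eid2 (0.986), Bcar1 (0.985), Ltbp3 (0.977) and Tmtc2 (0.975). Phex ranked 10 (0.971) and Dmp1 23 (0.966). Without virgin 1 they were Susd5, Tent5a, Tg, Dnajb9 and Lmna, with r from 0.965 to 0.973, and 0 of the 5 genes were shared. Mepe then ranked 71 (0.880), Phex 90 (0.867) and Dmp1 1058 (0.679). For Dkk1 the nearest were 1110064A23Rik, Lama4, Dusp1, Ltbp3 and Tg (0.981 to 0.987), and without virgin 1 Igsf8, 1110064A23Rik, Csrnp1, Tg and Ctdspl (0.954 to 0.979), with 2 shared. For the brighter Dkk3 probe set they were led by Socs5 (0.940) and without virgin 1 by Adgrl4 (0.951), with 2 of 5 shared. For Wif1 they were led by Ms4a7 (0.948) and without virgin 1 by Sfr1 (0.982), with 0 shared. A list of nearest genes over so few arrays is a description, and with deposited values in place of subtracted medians only Mepe of the 5 genes nearest to Sost stayed among the first 5.

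The genes through which these inhibitors act, and others of the pathway, were followed with the probe set of each gene that had the highest mean. The co-receptors and receptors Lrp4, Lrp5, Lrp6 and Kremen1 had differences of -0.05, 0.10, 0.05 and 0.02 between lactation and virgin, and none of these 4 passed in any comparison. LRP4 anchors sclerostin, and Kremen proteins bind DKK1 together with LRP6. Their medians were 0.03, 0.03 and 0.06 in lactation minus virgin, post-lactation minus lactation and post-lactation minus virgin. Over all 18194 genes the medians of these comparisons were 0.01, 0.00 and 0.00, and 0%, 0.555% and 0.11% of genes passed.

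Among 12 other Wnt antagonists, Sfrp2 was the only one that passed, in post-lactation against lactation. Sfrp2 encodes a frizzled-related protein that binds Wnt. It read 5.14, 4.75 and 5.34 in virgin 1, 2 and 3, 4.37, 4.23 and 4.03 in lactation, and 6.67, 6.20 and 6.27 in post-lactation arrays, so that all groups were separate. It rose by 2.17 (SE 0.23, 4.50-fold, limma adjusted p = 0.00173) from lactation to post-lactation. It was also higher in post-lactation than in virgin arrays (1.30, adjusted p = 0.142) and lower in lactation (-0.87, adjusted p = 1), neither of which passed. Without virgin 1 these were 1.33 (adjusted p = 0.334) and -0.84 (adjusted p = 1). Notum, which encodes an enzyme that inactivates Wnt proteins, and Apcdd1, which encodes a membrane Wnt inhibitor, had the largest positive differences between lactation and virgin (0.65 and 0.48), and Sfrp2 and Frzb (-0.81) the most negative. In post-lactation minus virgin Sfrp2 and Apcdd1 (0.52) were highest, and Frzb (-0.20) and Notum (-0.11) lowest. The medians of the list were 0.13, 0.04 and 0.09 in the 3 comparisons, in the order given for the receptors.

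Of 13 measured target genes of Wnt signalling, 0 passed in any comparison with all arrays and no block (limma). With the array set as a block 1 passed in post-lactation against lactation, where 2.63% of all genes did. This was Nkd1, which encodes a feedback inhibitor of the pathway, higher by 0.49 (SE 0.08, limma adjusted p = 0.0465). Its mean over all arrays was 4.48, and virgin 1 (3.66) and lactation 3 (3.42) were under the dim level. The medians were -0.03, 0.12 and 0.08. Axin2, the feedback inhibitor read most often as a target, differed by -0.03 (SE 0.30), 0.12 and 0.08, at a level near the dim threshold. In lactation minus virgin Ccnd1 (0.51) and Ccn4 (0.50) were highest and Fosl1 (-0.59) and Nkd1 (-0.30) lowest. In post-lactation minus lactation Lgr5 (0.65) and Lef1 (0.61) were highest and Ccnd1 (-0.64) and Tnfrsf11b (-0.35) lowest. In post-lactation minus virgin Lef1 (0.79) and Ccn4 (0.69) were highest and Fosl1 (-0.18) and Tnfrsf11b (-0.15) lowest.

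Regulators of Sost were represented by 13 measured genes, among them the parathyroid hormone receptor, the MEF2 factors that drive Sost, and the deacetylases and kinases that carry the hormone's signal to them. Again 0 passed in any comparison, and the medians were 0.01, 0.04 and 0.15. In lactation minus virgin Pth1r (0.48) and Sp7 (0.31) were highest and Mef2c (-0.25) and Mef2d (-0.11) lowest. In post-lactation minus lactation Hdac4 (0.35) and Mef2c (0.32) were highest and Pth1r (-0.25) and Esr1 (-0.22) lowest. In post-lactation minus virgin Mef2a (0.35) and Hdac4 (0.31) were highest and Esr1 (-0.27) and Crtc2 (-0.07) lowest. Mef2c was lower in virgin 1 as well (7.86 against 10.75 and 10.67 in virgin 2 and 3). Kremen2, Tcf7 and Runx2 were not analysed here, since no probe set named them alone.

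Without virgin 1 the medians of these lists in lactation minus virgin were -0.14 for the receptors, -0.07 for the antagonists, -0.33 for the target genes and -0.22 for the regulators, beside -0.08 over all genes. The mean was then lower in lactation for 4 of 4, 7 of 12, 11 of 13 and 12 of 13 genes, and 0 passed (limma, adjusted p = 1). Some genes named above then had the other sign in lactation minus virgin: Lrp5 (-0.13), Lrp6 (-0.15), Kremen1 (-0.01), Ccn4 (-0.35), Pth1r (-0.03) and Sp7 (-0.20). Frzb differed by -1.73 and Mef2c by -1.20. In post-lactation minus virgin they were -0.10, -0.05, -0.12 and -0.22, beside -0.09 over all genes, again with 0 passing, against 0.0605% of all genes, and the lowest adjusted p was 0.334 among the antagonists and 1 in the other lists. Ccn4 (-0.16) and Mef2a (-0.37) then had the other sign, and Frzb differed by -1.11.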

How the data were processed

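Each array is given in the deposited table as 1 log2 value per probe set, which per the submitters' processing notes was made with RMA. Its version and the annotation were not given in the sources used here. RMA equalises array distributions and fits each probe set by median polish, which can give arrays fitted together the same value. Arrays were therefore joined into sets where over 1% of values were equal. In the platform's annotation 34958 probe sets had 1 gene, 932 had several and 9211 had none. Levels of different probe sets were not set against each other.

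Group means of all 9 arrays were compared with limma 3.58.1 in R 4.3.3 (lmFit, eBayes, no block, 6 residual degrees of freedom), with Benjamini-Hochberg adjustment over 45101 probe sets and calls at an adjusted p under 0.05. The fit was tested on simulated data with less random noise than these arrays had, which does not show how it performs for Sost and Dkk1. Correlations used numpy 2.4.6 and scipy 1.17.1 under Python 3.11.15. Of each gene list all genes called are named, or else the 2 highest and the 2 lowest differences, and for each bright inhibitor the 5 most similar genes. Chondrocyte, neutrophil and other marker lists were averaged per array. The members and lists were chosen with earlier results of these data known. Alternatives were the array set or replicate number as a block, other normalizations, filters, sample choices and leaving out each array. Before the fits were compared, replicate numbers of the titles were checked and did not pair the samples.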

Additional observations from a re-analysis of the deposited data

How the results depend on the processing

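No member passed under any of 12 other settings or when each of the 9 arrays was left out. Of these settings, array set 1 left out with the block, and array medians subtracted with virgin 1 left out, were chosen after seeing the data. The lowest adjusted p was 0.315, for the brighter Sost probe set in lactation versus virgin without array set 1 and with the block. Of 609 alternative values of the 30 member differences 88 had another sign than with all arrays, 28 of them by more than 1 SE in either fit, and the others were at most 0.77 in size. With the block and without virgin 1, lactation minus virgin was -0.71 for the brighter Sost, -0.76 for the brighter Dkk1 and -1.06 for the dimmer Dkk1 probe set, and post-lactation minus virgin -0.70 for Sost and -0.68 for Dkk1. Without array set 1 these were -0.89, -0.90, -1.21, -0.52 and -0.54, with or without the block, and Dkk2 post-lactation minus lactation was -0.28. With array medians subtracted and without virgin 1 they were -0.87, -0.78, -1.07, -0.86 and -0.70. Leaving out 1 array at a time, lactation minus virgin ran from -0.99 to 1.71, -0.90 to 0.80 and -1.19 to 0.73 for the same probe sets and from -0.09 to 0.83 for Wif1 (-0.086 without virgin 1), post-lactation minus virgin from -0.98 to 1.73 for Sost and -0.83 to 0.88 for Dkk1, and post-lactation minus lactation from -0.34 to 0.26 for Dkk2. The low end came without virgin 1, and for Dkk2 without lactation 3.

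Over all probe sets, lactation versus virgin gave 0 calls, and 1 with array medians subtracted or quantile normalization. Post-lactation versus lactation gave 159, and 762 with the array set block (98 higher), 252 with quantile normalization, 952 with the block and without virgin 1, 0 without array set 1 (with the block too), 244 with medians subtracted and without virgin 1, and 83 to 170 with 1 array left out (85 without lactation 2, 98 without post-lactation 1, 83 without post-lactation 2). Post-lactation versus virgin gave 28, and 52, 38, 0, 0 and 15 in that order, and 11 to 37 with 1 array left out (17 without virgin 1, 15, 13 and 11 without post-lactation 1, 2 and 3). The cause was not tested. With the replicate number as a block the counts were 0, 151 and 36, with 0 members. Same-numbered samples correlated in their deviations at -0.43 to 0.71, so the numbers were not taken as pairs. The signal of Sostdc1 and Dkk2, near background, limits what can be said of them.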
